A study of Homo sapiens with 12 samples.

Results

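The DNA replication and S-phase genes examined here were 41 genes taken by symbol from the deposited count table, 41 of the 25049 genes counted, and all 41 passed the filter on low counts that left 21974 genes for testing. They code for the helicase, its loaders and activators, the polymerases, the sliding clamp and its loader, the enzymes of nucleotide supply, the cyclins and E2F factors of the G1/S transition, chromatin assembly factors, and a few other genes expressed in S phase. The rule used symbols only, but the genes were chosen with earlier results of these data known, so counts of members beside the background are descriptions. Polyadenylated RNA from MDA-MB-231b cells was counted per gene in 12 samples, which form 4 groups of 3. MDA-MB-231 is an established triple-negative breast cancer line, and the b derivative homes to bone. The groups were GLI2 KO cells with paclitaxel, the same cells with DMSO, WT cells with paclitaxel and WT cells with DMSO. Paclitaxel, a taxane that stabilises microtubules, was given at 50 nM for 2 days, and DMSO, its solvent, for the same time. According to the series' design text, Cas9 and a guide against GLI2 were delivered by lentivirus to make the knockout cells. The same text describes an arm with a guide that has no target. The WT cells of the labels were taken to be that arm, and if so lentiviral CRISPR was common to all 4 groups. The sources used here do not give whether either line was a clone or a pool of cells. The labels do not say that the 3 samples of a group were separate cultures, so the spread behind each p-value may be technical only.

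Cells copy their DNA in S phase. In G1 the origin recognition complex, CDC6 and CDT1 load the ring-shaped MCM2-7 helicase onto origins, and in S phase CDC45 and the GINS complex turn it into an active helicase that the polymerases follow. Transcription of most of these genes is known to be driven by E2F factors at the G1/S boundary, once cyclin-dependent kinases have released E2F from the RB proteins. In proliferating tumour cells the same genes are widely used as a measure of the share of cells in or near S phase. Cell-cycle position was not analysed here, and in bulk RNA fewer cells in S phase and less of an mRNA per cell cannot be told apart.

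Promoter sequence was examined as a description of the members. Since most of these genes are known to be driven by E2F factors, a high share of E2F words could be foreseen from their choice. The part of E2F in their fall with paclitaxel was not tested. RefSeq windows on GRCh38.p14, from 250 bases before to 50 after a transcription start, were found for 35 of the 41 members. The members with no window in the table were MCM4, MCM5, GINS4, RPA2, CCNE2 and WDR76. E2F factors bind words of the form TTTCCCGC, TTTCGCGC, TTTGCCGC and TTTGGCGC, which were searched on both strands. At least 1 such word was found for 19 of the 35 members (54.3%), against 791 of 13024 tested genes with a window (6.07%) and 1090 of 27305 genes in the promoter table (3.99%). The CCAAT box (CCAAT, both strands), bound by the factor NF-Y, was found for 21 of the 35 members (60.0%), against 42.2% of tested genes. The CHR element (TTTGAA, both strands), typical of genes expressed in G2 and mitosis, was found for 1 member, RRM1 (2.86%), against 14.3% of tested genes. The windows of members were richer in G and C than others, with a median of 67.5% over members and 64.0% over tested genes, and the part of base composition in these shares was not tested. A match is a description of letters and not evidence of a bound site, and its absence says only that these letters are not in the window. The following stretches, of 100 bases upstream of the start and read in the direction of transcription, are examples from single members. Capitals mark the E2F words.
MCM6 (chr2:135876504-135876603, minus strand, 4 words in overlapping pairs): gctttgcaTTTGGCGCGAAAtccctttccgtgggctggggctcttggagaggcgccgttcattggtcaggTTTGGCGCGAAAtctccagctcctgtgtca
E2F1 (chr20:33686386-33686485, minus strand, 2 words): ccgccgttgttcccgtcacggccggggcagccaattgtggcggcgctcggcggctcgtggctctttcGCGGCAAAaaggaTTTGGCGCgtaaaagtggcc
PCNA (chr20:5126623-5126722, minus strand, 1 word): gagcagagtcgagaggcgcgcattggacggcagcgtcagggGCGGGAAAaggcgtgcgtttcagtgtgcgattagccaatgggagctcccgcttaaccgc
CDT1 (chr16:88803689-88803788, plus strand, 1 word): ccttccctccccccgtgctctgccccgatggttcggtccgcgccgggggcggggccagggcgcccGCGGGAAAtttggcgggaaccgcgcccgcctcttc
GINS2 (chr16:85688955-85689054, minus strand, 1 word): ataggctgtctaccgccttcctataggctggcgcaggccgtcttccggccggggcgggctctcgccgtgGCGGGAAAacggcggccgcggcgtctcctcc
E2F2 (chr1:23531234-23531333, minus strand, 1 word): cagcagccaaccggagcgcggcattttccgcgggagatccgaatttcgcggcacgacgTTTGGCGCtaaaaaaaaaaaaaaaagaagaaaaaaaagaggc
CHAF1B (chr21:36385292-36385391, plus strand, 0 words): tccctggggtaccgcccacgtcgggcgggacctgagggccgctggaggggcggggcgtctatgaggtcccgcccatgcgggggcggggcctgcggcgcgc
In MCM6 the same run of letters stands in both places, and each run holds a word on either strand. CHAF1B, whose mRNA was among those most reduced by paclitaxel, held none of the 4 words in its window. The same was true of FEN1, RRM2, CCNE1 and TCF19, which also fell by -1 log2 or more in GLI2 KO cells. Of the other members with such a fall, GINS2 held 1 word, and MCM5 and WDR76 had no window.

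Totals lay between 83230948 and 109018776 counts per sample, and levels are given as CPM, counts scaled to library size with TMM factors. GLI2 mRNA, the target of the guide, stood at 3.97, 4.14 and 4.39 CPM in GLI2 KO paclitaxel samples, 9.28, 8.23 and 10.1 CPM in GLI2 KO DMSO samples, 6.42, 5.65 and 4.97 CPM in WT paclitaxel samples, and 10.4, 11.4 and 10.6 CPM in WT DMSO samples. A frameshift need not lower mRNA, so this level does not measure the loss of GLI2 protein. Defining genes of the line such as VIM and AXL were abundant, and the 6 basal or mesenchymal markers summed to 4368 to 4699 CPM in GLI2 KO paclitaxel, 5900 to 6263 CPM in GLI2 KO DMSO, 4761 to 4793 CPM in WT paclitaxel and 6068 to 6196 CPM in WT DMSO. Markers of other cell types moved with treatment, and some also differed between the genotypes. Haematopoietic markers (4 of 6 in the table) summed to 2.06 to 2.63 CPM in GLI2 KO paclitaxel, 0.692 to 0.930 CPM in GLI2 KO DMSO, 1.70 to 1.95 CPM in WT paclitaxel and 0.464 to 0.483 CPM in WT DMSO. Stromal markers (5 of 8) summed to 77.5 to 80.6, 57.2 to 60.6, 70.1 to 72.0 and 58.4 to 63.0 CPM in the same order of groups, endothelial markers (4 of 4) to 2.53 to 2.83, 0.941 to 1.27, 3.88 to 4.28 and 2.33 to 2.96 CPM, and luminal markers (7 of 8) to 725 to 754, 618 to 667, 686 to 714 and 570 to 594 CPM. Their part in the results was not tested. WT DMSO replicate 2, GLI2 KO DMSO replicate 3 and GLI2 KO paclitaxel replicate 3 stood furthest from their groups, and results that rest on them are given without them below.

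Paclitaxel lowered nearly the whole set in both genotypes. In GLI2 KO cells 41 of 41 members were lower in paclitaxel than in DMSO, and in WT cells 40 of 41, by edgeR's quasi-likelihood test with Benjamini-Hochberg adjustment at 0.05 over all 21974 genes. The background is that 32.2% of all tested genes were lower in paclitaxel in GLI2 KO cells and 32.1% in WT cells. The exception was RPA2 in WT cells, with a log2 fold change of -0.04 ± 0.04 (adjusted p = 0.436). The median log2 fold change of the members was -0.84 in GLI2 KO cells, with a range of -1.35 to -0.31, and -0.60 in WT cells, with a range of -1.04 to -0.04. Over all tested genes the medians were 0.02 in GLI2 KO cells and 0.03 in WT cells. A log2 fold change of -1 or lower was seen for 8 members in GLI2 KO cells (MCM5, GINS2, FEN1, RRM2, CCNE1, CHAF1B, TCF19 and WDR76) and for 1 in WT cells (RRM2). The paclitaxel samples lay below all DMSO samples of the same genotype for 41 members in GLI2 KO cells, where 32.8% of all tested genes did so, and for 40 members in WT cells, where 34.5% did so.

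**Figure D1:**
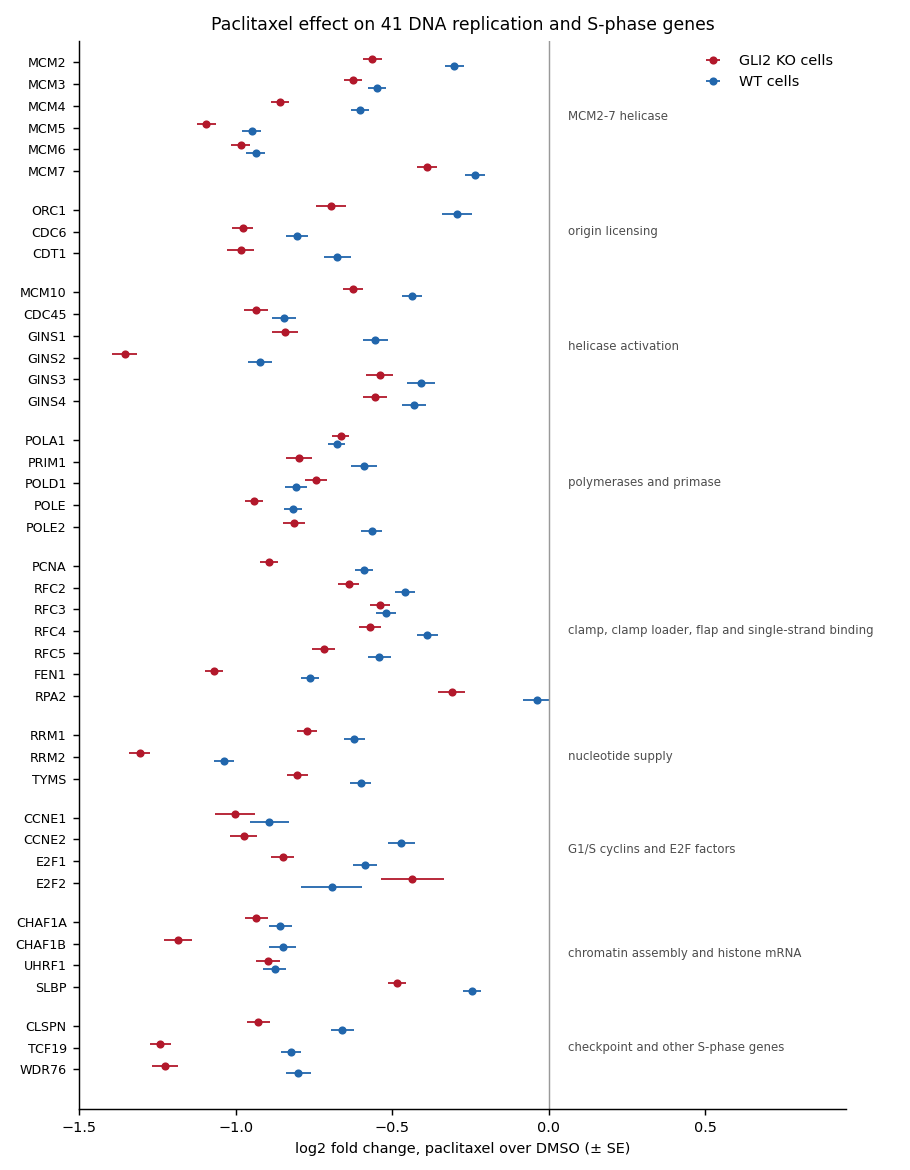
Log2 fold change of paclitaxel over DMSO (x axis) for each of the 41 members (y axis, grouped by role) in GLI2 KO cells (red) and WT cells (blue); points are edgeR estimates and bars 1 SE. The GLI2 KO points run from -1.35 to -0.31 and the WT points from -1.04 to -0.04, and the GLI2 KO point lies further left for 38 members.

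The fall was larger in GLI2 KO cells for most members. The test of the difference itself, GLI2 KO effect minus WT effect, called 29 members lower and 0 higher, where 6.93% of all tested genes were lower and 6.56% higher. Its median was -0.19 log2 over the members and -0.02 over all tested genes, and 38 of 41 members lay below 0. The largest differences belonged to CCNE2 (-0.50 ± 0.06, adjusted p = 6.80e-06), GINS2 (-0.43 ± 0.05), WDR76 (-0.43 ± 0.06), TCF19 (-0.42 ± 0.05) and ORC1 (-0.40 ± 0.07). The 12 members that did not pass were MCM3, MCM6, CDC45, GINS3, GINS4, POLA1, POLD1, RFC3, CCNE1, E2F2, CHAF1A and UHRF1. Of these, POLA1 (0.01 ± 0.04), POLD1 (0.06 ± 0.05) and E2F2 (0.26 ± 0.14) lay above 0. An E2F word was found in the window of 12 of 24 called members (50.0%) and of 7 of 11 members not called (63.6%).

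As a share of all counts, the 41 genes took 0.344% to 0.347% in GLI2 KO paclitaxel samples, 0.522% to 0.541% in GLI2 KO DMSO samples, 0.403% to 0.406% in WT paclitaxel samples and 0.557% to 0.567% in WT DMSO samples. The mean log2 level of the members, set to 0 at the WT DMSO mean, ran from -0.88 to -0.85 in GLI2 KO paclitaxel, -0.09 to -0.01 in GLI2 KO DMSO, -0.64 to -0.62 in WT paclitaxel and -0.02 to 0.03 in WT DMSO. No group of samples overlapped another except the DMSO groups. GLI2 KO DMSO replicate 3 was the lowest of its group for 34 of 41 members and GLI2 KO paclitaxel replicate 3 for 25 of 41.

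**Figure D2:**
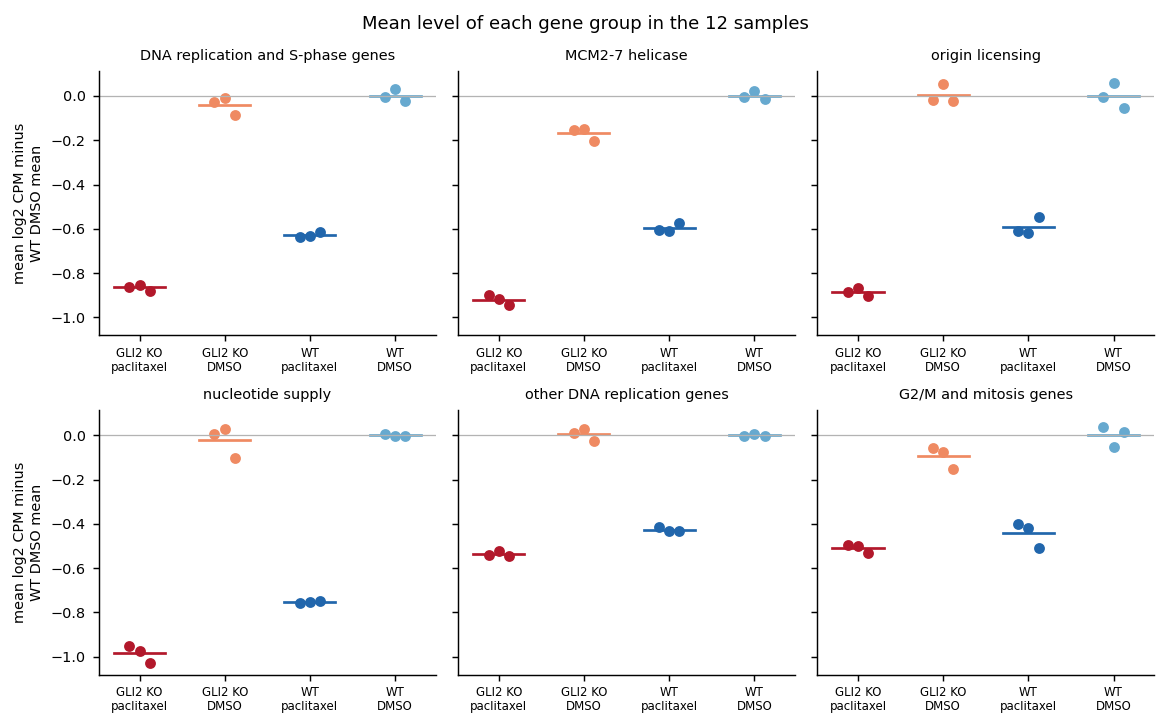
Mean log2 CPM of 6 gene groups minus the WT DMSO mean (y axis) in each of the 12 samples, by group (x axis); points are samples and lines group means. For all 41 members the GLI2 KO paclitaxel samples sit between -0.88 and -0.85 and the WT paclitaxel samples between -0.64 and -0.62, while the 2 DMSO groups overlap.

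The 6 subunits of the MCM2-7 helicase all fell with paclitaxel in both genotypes, with a median log2 fold change of -0.74 in GLI2 KO and -0.58 in WT cells. MCM5 stood at 64.0, 61.4 and 60.9 CPM in GLI2 KO paclitaxel, 132, 135 and 131 CPM in GLI2 KO DMSO, 82.8, 84.0 and 84.4 CPM in WT paclitaxel, and 160.3, 166 and 159 CPM in WT DMSO. Its paclitaxel effect was -1.09 ± 0.03 in GLI2 KO cells (adjusted p = 4.11e-19) and -0.95 ± 0.03 in WT cells (adjusted p = 4.74e-18), the largest fall of the 6 subunits in either genotype. For MCM6 the samples gave 68.9, 69.2 and 67.3 CPM in GLI2 KO paclitaxel, 137, 134 and 135 CPM in GLI2 KO DMSO, 105, 103 and 108 CPM in WT paclitaxel, and 199.7, 208 and 197 CPM in WT DMSO. The 4 groups of MCM6 did not overlap, and the paclitaxel effects were -0.98 ± 0.03 in GLI2 KO and -0.94 ± 0.03 in WT cells, with a difference of -0.05 ± 0.04 that did not pass (adjusted p = 0.525). MCM2 showed a different layout, at 116, 117 and 113 CPM in GLI2 KO paclitaxel, 173, 176 and 164 CPM in GLI2 KO DMSO, 152, 150.2 and 159 CPM in WT paclitaxel, and 189, 191 and 189 CPM in WT DMSO. The WT paclitaxel samples of MCM2 lay close under the DMSO samples while the GLI2 KO paclitaxel samples lay far below all others, and the difference of effects was -0.26 ± 0.04 (adjusted p = 0.000322). MCM7 changed least, with effects of -0.39 ± 0.03 in GLI2 KO and -0.24 ± 0.03 in WT cells. The calls on the difference of effects for MCM5 (adjusted p = 0.0239) and MCM7 (adjusted p = 0.0260) were each lost without any 1 of 6 libraries, with adjusted p up to 0.0718 and 0.0701. The effects on MCM3 were -0.63 ± 0.03 in GLI2 KO and -0.55 ± 0.03 in WT cells, and those on MCM4 were -0.86 ± 0.03 in GLI2 KO and -0.60 ± 0.03 in WT cells. Up to 23.6% of the exon bases of MCM2 are shared with TPRA1 and a further annotated gene, and since strand use in counting is not stated, part of its counts may be theirs.

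The subunits of this ring act in equal numbers, but their mRNAs did not stand at equal levels. Per kilobase of merged exons, in WT DMSO samples MCM3 stood at 107 ± 1.1 and MCM7 at 94.1 ± 1.7 CPM per kilobase, against 52.4 ± 1.3 for MCM4, 49.0 ± 1.3 for MCM6, 38.6 ± 0.23 for MCM2 and 22.0 ± 0.55 for MCM5 (SD, n = 3). In GLI2 KO paclitaxel samples the same subunits stood at 76.4 (MCM3), 72.5 (MCM7), 26.0 (MCM4), 23.6 (MCM2), 16.6 (MCM6) and 8.46 (MCM5) CPM per kilobase. The spread over subunits was therefore wider there, with MCM3 at 9.03 times MCM5 in GLI2 KO paclitaxel, 6.53 times in GLI2 KO DMSO, 6.42 times in WT paclitaxel and 4.86 times in WT DMSO. These levels depend on the transcript length used. With the length of the principal transcript, chosen after seeing the data, MCM7 (140) stood above MCM3 (122) in WT DMSO, MCM5 remained lowest (45.8), and MCM3 stood at 4.95 times MCM5 in GLI2 KO paclitaxel and 2.66 times in WT DMSO.

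**Figure D3:**
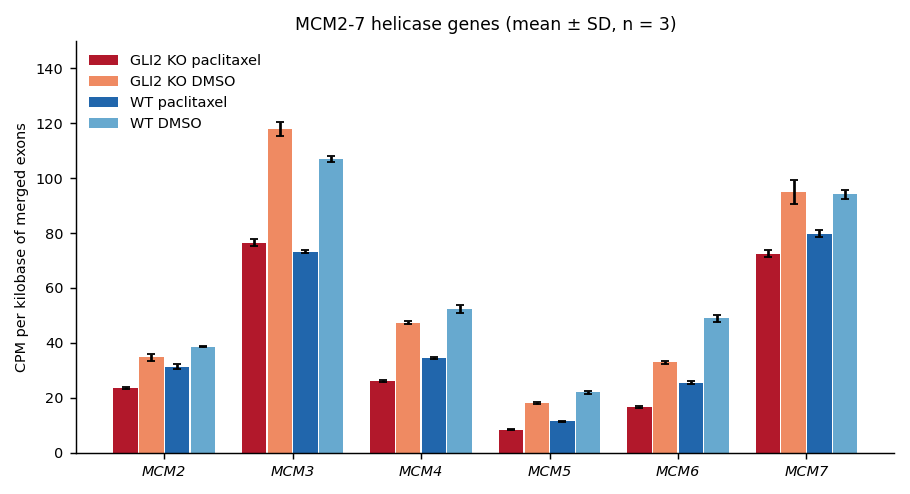
CPM per kilobase of merged exons (y axis, from 0) of the 6 MCM2-7 genes (x axis) in the 4 groups; bars are means and lines SDs over 3 samples. MCM3 and MCM7 stand highest in every group and MCM5 lowest, and the GLI2 KO paclitaxel bar is the lowest of its gene for all but MCM3.

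The origin licensing genes fell in both genotypes and more so in GLI2 KO cells, where all 3 passed the test of the difference. ORC1, the largest subunit of the origin recognition complex, stood at 16.0, 17.1 and 16.1 CPM in GLI2 KO paclitaxel, 25.7, 28.1 and 25.8 CPM in GLI2 KO DMSO, 21.2, 21.3 and 20.9 CPM in WT paclitaxel, and 27.1, 26.2 and 24.4 CPM in WT DMSO. Its paclitaxel effect was -0.70 ± 0.05 in GLI2 KO cells and -0.29 ± 0.05 in WT cells, a difference of -0.40 ± 0.07 (adjusted p = 0.000311). CDT1, which brings the MCM ring to the origin, gave 35.6, 34.0 and 34.3 CPM in GLI2 KO paclitaxel, 68.4, 69.9 and 67.2 CPM in GLI2 KO DMSO, 42.7, 41.6 and 47.7 CPM in WT paclitaxel, and 68.9, 73.8 and 68.4 CPM in WT DMSO. The DMSO groups of CDT1 overlapped, and its difference of effects was -0.31 ± 0.06 (adjusted p = 0.00130). CDC6, the ATPase that works with CDT1, had 113, 115 and 112 CPM in GLI2 KO paclitaxel, 221, 228 and 221 CPM in GLI2 KO DMSO, 125, 126 and 129.9 CPM in WT paclitaxel, and 214, 236 and 215 CPM in WT DMSO. Its effects of -0.98 ± 0.03 in GLI2 KO and -0.80 ± 0.03 in WT cells gave a smaller difference of -0.17 ± 0.05 (adjusted p = 0.0176). This call was lost without WT DMSO replicate 1 (adjusted p = 0.0612), WT DMSO replicate 3 (0.0609) or WT paclitaxel replicate 3 (0.0530).

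Among the genes that activate the helicase, GINS2 fell most of all 41 members in GLI2 KO cells. GINS2 stood at 23.2, 23.3 and 22.6 CPM in GLI2 KO paclitaxel, 61.1, 60.9 and 54.7 CPM in GLI2 KO DMSO, 34.8, 34.2 and 35.0 CPM in WT paclitaxel, and 66.0, 66.1 and 65.3 CPM in WT DMSO. The GLI2 KO paclitaxel samples lay below all other samples, and the effect was -1.35 ± 0.04 in GLI2 KO cells (adjusted p = 8.71e-19) and -0.92 ± 0.04 in WT cells (adjusted p = 5.41e-16). The 4 GINS genes code for 1 complex, yet their mRNAs fell by unequal amounts. The effects in GLI2 KO cells were -0.84 ± 0.04 for GINS1, -0.54 ± 0.04 for GINS3 and -0.55 ± 0.04 for GINS4, against -0.55 ± 0.04, -0.41 ± 0.04 and -0.43 ± 0.04 in WT cells. The difference of effects passed for GINS1 (-0.29 ± 0.06, adjusted p = 0.00157) and did not for GINS3 (adjusted p = 0.175) or GINS4 (adjusted p = 0.137). GINS4 shares 23.6% of its exon bases with other annotated genes, so part of its counts may be theirs. CDC45, the third part of the active helicase, stood at 32.9, 34.2 and 33.1 CPM in GLI2 KO paclitaxel, 63.8, 67.2 and 60.6 CPM in GLI2 KO DMSO, 37.9, 37.0 and 35.2 CPM in WT paclitaxel, and 66.6, 65.5 and 65.8 CPM in WT DMSO. Both falls were large, -0.94 ± 0.04 in GLI2 KO and -0.85 ± 0.04 in WT cells, and their difference of -0.09 ± 0.05 did not pass (adjusted p = 0.311). MCM10, needed for the helicase to start unwinding, averaged 57.0 ± 1.1 CPM in GLI2 KO paclitaxel, 87.9 ± 2.6 in GLI2 KO DMSO, 65.1 ± 0.30 in WT paclitaxel and 88.1 ± 3.2 in WT DMSO (SD, n = 3).

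The polymerase genes split in how the genotypes compared. POLA1, the catalytic subunit of polymerase alpha that starts each strand, stood at 109, 111 and 110.1 CPM in GLI2 KO paclitaxel, 172, 177 and 173 CPM in GLI2 KO DMSO, 109, 109 and 106 CPM in WT paclitaxel, and 172, 173 and 174 CPM in WT DMSO. The samples of the genotypes overlapped at both treatments, and the paclitaxel effects of -0.66 ± 0.03 in GLI2 KO and -0.68 ± 0.03 in WT cells differed by 0.01 ± 0.04 (adjusted p = 0.871). POLD1, the catalytic subunit of the lagging-strand polymerase delta, likewise had effects of -0.74 ± 0.04 in GLI2 KO and -0.81 ± 0.04 in WT cells. POLE2, the second subunit of the leading-strand polymerase epsilon, behaved otherwise, with 33.2, 34.2 and 34.6 CPM in GLI2 KO paclitaxel, 59.5, 62.7 and 57.2 CPM in GLI2 KO DMSO, 60.3, 60.0 and 57.8 CPM in WT paclitaxel, and 87.5, 87.0 and 89.3 CPM in WT DMSO. The GLI2 KO DMSO samples of POLE2 lay at the level of the WT paclitaxel samples, so its genotype difference in DMSO (-0.56 ± 0.03, adjusted p = 1.02e-12) was about as large as its paclitaxel effect in WT cells (-0.57 ± 0.03, adjusted p = 4.63e-13). POLE, the catalytic subunit of the same polymerase, stood at 71.9, 72.9 and 71.2 CPM in GLI2 KO paclitaxel, 137, 139 and 139 CPM in GLI2 KO DMSO, 87.3, 86.0 and 83.3 CPM in WT paclitaxel, and 149.8, 153 and 149 CPM in WT DMSO. Its effect was -0.94 ± 0.03 in GLI2 KO and -0.82 ± 0.03 in WT cells, and the call on their difference (-0.12 ± 0.04, adjusted p = 0.0401) was lost with RLE factors, with library totals and with DESeq2, and without any 1 of 9 libraries, with adjusted p up to 0.102. PRIM1, the primase that lays down RNA primers, had effects of -0.80 ± 0.04 in GLI2 KO and -0.59 ± 0.04 in WT cells. The call on their difference was lost without GLI2 KO DMSO replicate 1 (adjusted p = 0.0514), WT DMSO replicate 1 (0.0673), WT paclitaxel replicate 1 (0.0561) or WT paclitaxel replicate 3 (0.0534). PRIM1 shares 21.6% of its exon bases with HSD17B6, NACA and a further annotated gene, so part of its counts may be theirs.

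The sliding clamp PCNA, which holds polymerases on DNA, had the highest level per kilobase of all 41 members in WT DMSO cells, 261 CPM per kilobase of merged exons. Its samples stood at 178, 177 and 174 CPM in GLI2 KO paclitaxel, 332, 332 and 319 CPM in GLI2 KO DMSO, 252, 254 and 260.0 CPM in WT paclitaxel, and 384, 390.2 and 379 CPM in WT DMSO. The 4 groups did not overlap, and the effects of -0.89 ± 0.03 in GLI2 KO and -0.59 ± 0.03 in WT cells differed by -0.30 ± 0.04 (adjusted p = 1.87e-05). FEN1, the nuclease that trims the flaps of Okazaki fragments, gave 139, 136 and 135 CPM in GLI2 KO paclitaxel, 287, 293 and 278 CPM in GLI2 KO DMSO, 182, 180.4 and 183 CPM in WT paclitaxel, and 309, 313 and 303 CPM in WT DMSO. The difference of effects for FEN1 was -0.31 ± 0.04 (adjusted p = 1.70e-05), close to that of PCNA. The clamp loader genes RFC2 to RFC5 fell less, with effects of -0.72 to -0.54 log2 in GLI2 KO and -0.54 to -0.39 in WT cells, and 3 of the 4 passed the test of the difference. The call for RFC5 was lost without any 1 of 6 libraries, with adjusted p up to 0.0809. RFC3 did not pass, at 70.5, 71.7 and 70.2 CPM in GLI2 KO paclitaxel, 105, 106 and 97.8 CPM in GLI2 KO DMSO, 82.2, 82.9 and 78.4 CPM in WT paclitaxel, and 117, 117 and 116 CPM in WT DMSO. RPA2, a subunit of the protein that coats single-stranded DNA, had the smallest paclitaxel effect of the members in both genotypes. RPA2 stood at 48.9, 48.4 and 46.0 CPM in GLI2 KO paclitaxel, 62.3, 61.1 and 54.2 CPM in GLI2 KO DMSO, 41.9, 41.1 and 42.4 CPM in WT paclitaxel, and 43.8, 41.9 and 43.0 CPM in WT DMSO. In WT cells the paclitaxel and DMSO samples overlapped, while in GLI2 KO cells the paclitaxel effect was -0.31 ± 0.04 (adjusted p = 5.42e-07), and at either treatment GLI2 KO samples were above all WT samples. Its sign in WT cells depended on the scaling, at 0.09 with upper-quartile factors (adjusted p = 0.0445) and 0.12 with library totals (adjusted p = 0.0128).

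All 3 nucleotide supply genes passed in both genotypes and in the test of the difference, but the call on the difference for RRM1 was lost without any 1 of 7 libraries, with adjusted p up to 0.0879. RRM2, the S-phase subunit of ribonucleotide reductase, stood at 179.8, 180.4 and 171 CPM in GLI2 KO paclitaxel, 441, 458 and 416 CPM in GLI2 KO DMSO, 232, 231 and 234 CPM in WT paclitaxel, and 474, 484 and 473 CPM in WT DMSO. It had the largest fall of all members in WT cells, -1.04 ± 0.03 (adjusted p = 4.80e-18), and an effect of -1.31 ± 0.03 in GLI2 KO cells. RRM1, the large subunit whose protein is more stable through the cycle, fell less, with effects of -0.77 ± 0.03 in GLI2 KO and -0.62 ± 0.03 in WT cells. TYMS, which makes thymidylate, stood at 168, 162 and 155 CPM in GLI2 KO paclitaxel, 288, 291 and 269 CPM in GLI2 KO DMSO, 188, 188 and 189 CPM in WT paclitaxel, and 291, 285 and 281 CPM in WT DMSO. TYMS shares 46.6% of its exon bases with ENOSF1 and TYMSOS, so its counts may include theirs, and RRM2 shares 20.2% of its exon bases with another annotated gene.

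The cyclins E and the activating E2F factors, which drive entry into S phase, fell with paclitaxel in both genotypes but differed in how genotype entered. CCNE2 had the largest difference of effects among the 41 members. Its samples gave 29.8, 29.6 and 30.3 CPM in GLI2 KO paclitaxel, 57.9, 61.2 and 57.3 CPM in GLI2 KO DMSO, 31.3, 35.7 and 35.1 CPM in WT paclitaxel, and 47.4, 48.9 and 45.2 CPM in WT DMSO. CCNE2 was higher in GLI2 KO than in WT cells in DMSO (0.32 ± 0.04, adjusted p = 1.01e-06) and lower in paclitaxel (-0.19 ± 0.04, adjusted p = 0.00126). CCNE2 shares 37.1% of its exon bases, mostly with INTS8, so part of its counts may be theirs. CCNE1 stood at 10.6, 11.2 and 9.51 CPM in GLI2 KO paclitaxel, 22.2, 20.9 and 19.5 CPM in GLI2 KO DMSO, 12.5, 13.8 and 13.6 CPM in WT paclitaxel, and 24.6, 26.5 and 23.1 CPM in WT DMSO. For CCNE1 the effects were -1.002 ± 0.064 in GLI2 KO and -0.89 ± 0.06 in WT cells, and their difference of -0.11 ± 0.09 did not pass (adjusted p = 0.482). E2F1 gave 62.1, 62.1 and 59.1 CPM in GLI2 KO paclitaxel, 110.2, 112 and 108 CPM in GLI2 KO DMSO, 67.6, 65.5 and 65.0 CPM in WT paclitaxel, and 95.0, 107 and 96.0 CPM in WT DMSO. Like CCNE2, it was higher in GLI2 KO cells in DMSO (0.15 ± 0.04, adjusted p = 0.00161) and lower in paclitaxel (-0.11 ± 0.04, adjusted p = 0.0177), a call lost without GLI2 KO paclitaxel replicate 3 (adjusted p = 0.0908) or WT paclitaxel replicate 1 (0.0896). E2F2 had the lowest level per kilobase of the members in WT DMSO cells, 1.59 CPM per kilobase, and stood at 4.19, 4.62 and 5.17 CPM in GLI2 KO paclitaxel, 6.28, 5.85 and 6.84 CPM in GLI2 KO DMSO, 5.21, 5.28 and 5.59 CPM in WT paclitaxel, and 8.65, 10.1 and 7.34 CPM in WT DMSO. Its spread within groups was wide, with effects of -0.44 ± 0.10 in GLI2 KO and -0.69 ± 0.10 in WT cells and a difference of 0.26 ± 0.14 that did not pass (adjusted p = 0.255).

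The chromatin assembly factor 1 subunits, which place histones on new DNA, both fell with paclitaxel, and CHAF1B passed the test of the difference of effects while CHAF1A did not. CHAF1B stood at 16.9, 15.9 and 15.9 CPM in GLI2 KO paclitaxel, 37.6, 37.2 and 36.0 CPM in GLI2 KO DMSO, 22.2, 22.4 and 23.0 CPM in WT paclitaxel, and 38.8, 43.1 and 40.1 CPM in WT DMSO. Its effects were -1.19 ± 0.04 in GLI2 KO and -0.85 ± 0.04 in WT cells, a difference of -0.34 ± 0.06 (adjusted p = 0.000607). CHAF1A had effects of -0.93 ± 0.04 in GLI2 KO and -0.86 ± 0.04 in WT cells, and the difference did not pass (adjusted p = 0.370). UHRF1, which guides DNA methylation onto the new strand, gave 69.8, 70.0 and 70.9 CPM in GLI2 KO paclitaxel, 128, 136 and 128 CPM in GLI2 KO DMSO, 82.7, 82.6 and 80.0 CPM in WT paclitaxel, and 148, 161 and 142 CPM in WT DMSO. Its effects were -0.90 ± 0.04 in GLI2 KO and -0.88 ± 0.04 in WT cells, and the difference of -0.02 ± 0.05 did not pass (adjusted p = 0.845). SLBP, which binds the stem-loop of histone mRNAs, stood at 109.5, 108 and 106 CPM in GLI2 KO paclitaxel, 152, 153 and 148 CPM in GLI2 KO DMSO, 87.3, 90.0 and 90.5 CPM in WT paclitaxel, and 106, 107 and 104 CPM in WT DMSO. SLBP was higher in GLI2 KO than in WT cells at both treatments, and its paclitaxel effects were -0.48 ± 0.03 in GLI2 KO and -0.25 ± 0.03 in WT cells, among the smaller falls of the set. Counts of the clustered histone genes went the other way in these poly(A)-selected libraries. Of 31 tested, 24 were higher with paclitaxel in GLI2 KO cells (background 33.0%) and 26 in WT cells (background 34.6%). RNA without a poly(A) tail is largely lost in such libraries, so these counts may not reflect the histone mRNAs that SLBP binds. Levels were often low, as for H4C14 in GLI2 KO cells (0.213 CPM in paclitaxel, 0.00855 in DMSO), though H4C8 stood at 5.71 and 0.623 CPM.

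The checkpoint adaptor CLSPN and the S-phase genes TCF19 and WDR76 were all in the group with a larger fall in GLI2 KO cells. TCF19, a nuclear factor expressed at the G1/S boundary, stood at 38.0, 36.6 and 36.5 CPM in GLI2 KO paclitaxel, 88.5, 89.5 and 84.5 CPM in GLI2 KO DMSO, 43.3, 43.5 and 45.5 CPM in WT paclitaxel, and 77.3, 77.5 and 79.4 CPM in WT DMSO. Like CCNE2 and E2F1, it was higher in GLI2 KO than in WT cells in DMSO (0.16 ± 0.03, adjusted p = 0.000181) and lower in paclitaxel (-0.25 ± 0.03, adjusted p = 1.02e-06). WDR76, a WD-repeat protein, gave 20.0, 20.8 and 21.1 CPM in GLI2 KO paclitaxel, 49.2, 49.1 and 46.4 CPM in GLI2 KO DMSO, 25.8, 27.4 and 27.9 CPM in WT paclitaxel, and 46.5, 48.5 and 46.3 CPM in WT DMSO. Its DMSO groups overlapped, its paclitaxel groups did not, and the effects were -1.23 ± 0.04 in GLI2 KO and -0.80 ± 0.04 in WT cells. CLSPN, which passes the replication stress signal to CHK1, had 89.0, 87.9 and 95.0 CPM in GLI2 KO paclitaxel, 171, 177 and 170.3 CPM in GLI2 KO DMSO, 92.0, 89.7 and 99.3 CPM in WT paclitaxel, and 145, 153 and 146 CPM in WT DMSO. In paclitaxel its genotypes overlapped, with -0.05 ± 0.04 for GLI2 KO over WT (adjusted p = 0.321), while in DMSO GLI2 KO was higher by 0.22 ± 0.04 (adjusted p = 1.86e-05).

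**Figure D4:**
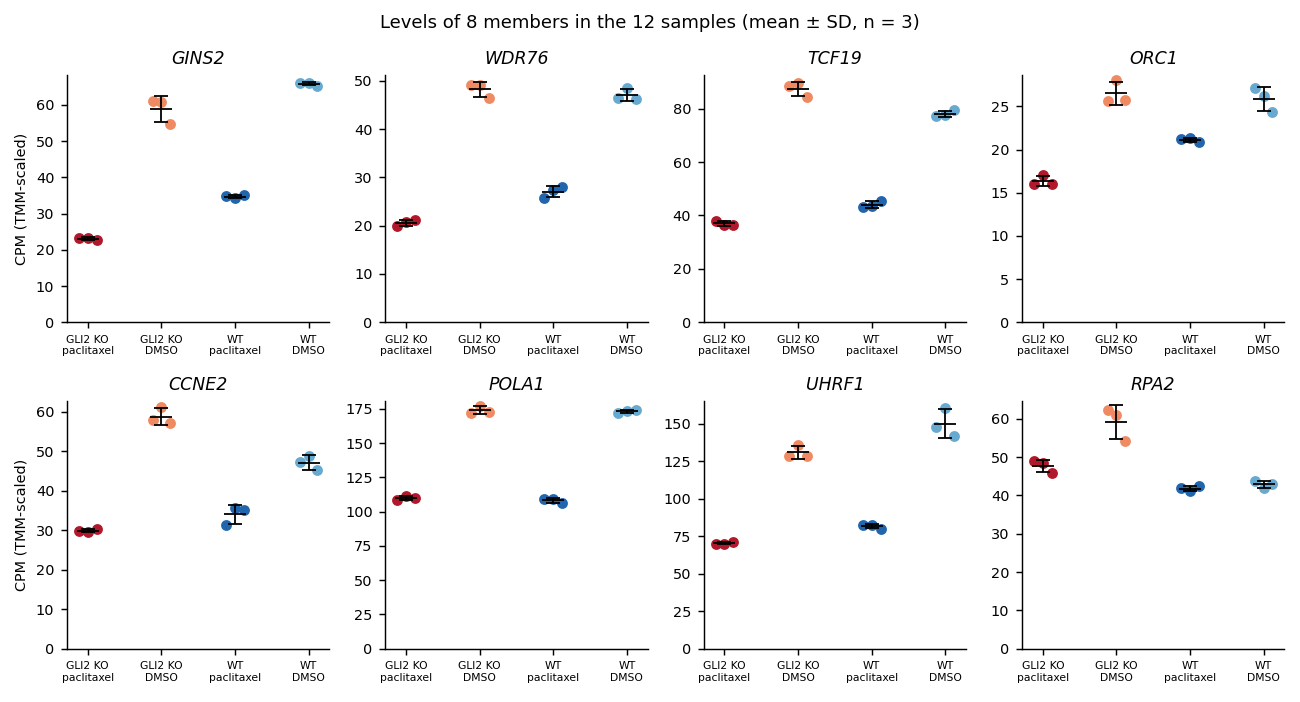
TMM-scaled CPM (y axis, from 0) of 8 members in each of the 12 samples, by group (x axis); points are samples, and black lines the mean and SD of 3. GINS2, WDR76, TCF19 and ORC1 stand lowest in GLI2 KO paclitaxel, CCNE2 is highest in GLI2 KO DMSO, POLA1 shows no split by genotype, and RPA2 is above WT in both GLI2 KO groups.

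Without drug, members differed between the genotypes in both directions. Of the 41 members 7 were higher in GLI2 KO than in WT cells in DMSO (MCM3, RPA2, CCNE2, E2F1, SLBP, CLSPN and TCF19), against a background of 22.0% of tested genes, and 17 were lower, against 19.6%. The median log2 difference was -0.04 over the members and 0.01 over all tested genes. The largest differences were -0.57 ± 0.03 for MCM6, -0.56 ± 0.03 for POLE2 and 0.51 ± 0.03 for SLBP. The samples of the genotypes did not overlap for 18 members lower and 7 higher in GLI2 KO, where 23.6% and 25.0% of all tested genes did so. GLI2 KO DMSO replicate 3 moved this comparison: without it 11 members were higher and 15 lower, and without all 3 libraries that stood furthest from their groups 12 were higher and 14 lower, with a median of 0.01. The calls in DMSO for POLD1, GINS4 and CHAF1B were lost without any 1 of 6, 4 and 1 libraries, with adjusted p up to 0.163, 0.184 and 0.0958.

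In paclitaxel the direction was mostly shared, and 33 members were lower in GLI2 KO than in WT cells (background 22.2%) and 2 higher, RPA2 and SLBP (background 23.4%). The median log2 difference was -0.20 over the members and -0.01 over all tested genes. The samples of the genotypes did not overlap for 35 members lower in GLI2 KO and 3 higher, against 27.3% and 27.9% of all tested genes. POLE2 (-0.80 ± 0.04), MCM6 (-0.62 ± 0.03), GINS2 (-0.59 ± 0.04), PCNA (-0.53 ± 0.03) and CHAF1B (-0.47 ± 0.04) had the largest differences. The members that did not pass were MCM3, POLA1, POLD1, RRM1, E2F2 and CLSPN. The calls for RFC5 and CHAF1A were lost without any 1 of 8 and 1 libraries, with adjusted p up to 0.173 and 0.0684. This comparison and the paclitaxel effects share samples, so they are not separate evidence.

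Position on the chromosome went with the genotype difference for some members. For each member, the median GLI2 KO over WT log2 fold change of its 50 nearest tested genes on GENCODE 29 (GRCh38) was set beside its own. In DMSO, 8 members had neighbours whose median was beyond 0.2 in size. POLE2 on chromosome 14 (-0.56 ± 0.03) had neighbours at -0.45, PCNA on chromosome 20 (-0.23 ± 0.03) at -0.33, MCM6 on chromosome 2 (-0.57 ± 0.03) at -0.26, and SLBP on chromosome 4 (0.51 ± 0.03) at 0.43. RPA2 and CLSPN, both on chromosome 1, were higher in GLI2 KO beside neighbours at 0.245 and 0.264, and CCNE2 on chromosome 8 had neighbours at 0.58. E2F2, also on chromosome 1, went against its neighbours, at -0.45 ± 0.10 beside 0.25. All 8 passed the test in DMSO, 7 of them with the sign of their neighbours. Of the other 33 members 16 passed, the largest in size being MCM5 (-0.29 ± 0.03), whose neighbours had a median of 0.01. For the members named above with the largest differences in paclitaxel, the neighbours' medians there were -0.51 (POLE2), -0.31 (MCM6) and -0.34 (PCNA). Those of GINS2 and CHAF1B were -0.02 and 0.06. A regional difference between the 2 lines and an effect of GLI2 on these genes cannot be told apart in this design. For the difference of paclitaxel effects, the neighbours' medians ran from -0.11 to 0.09 over the 41 members, and that of CCNE2, with its own difference of -0.50 ± 0.06, was the lowest.

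**Figure D5:**
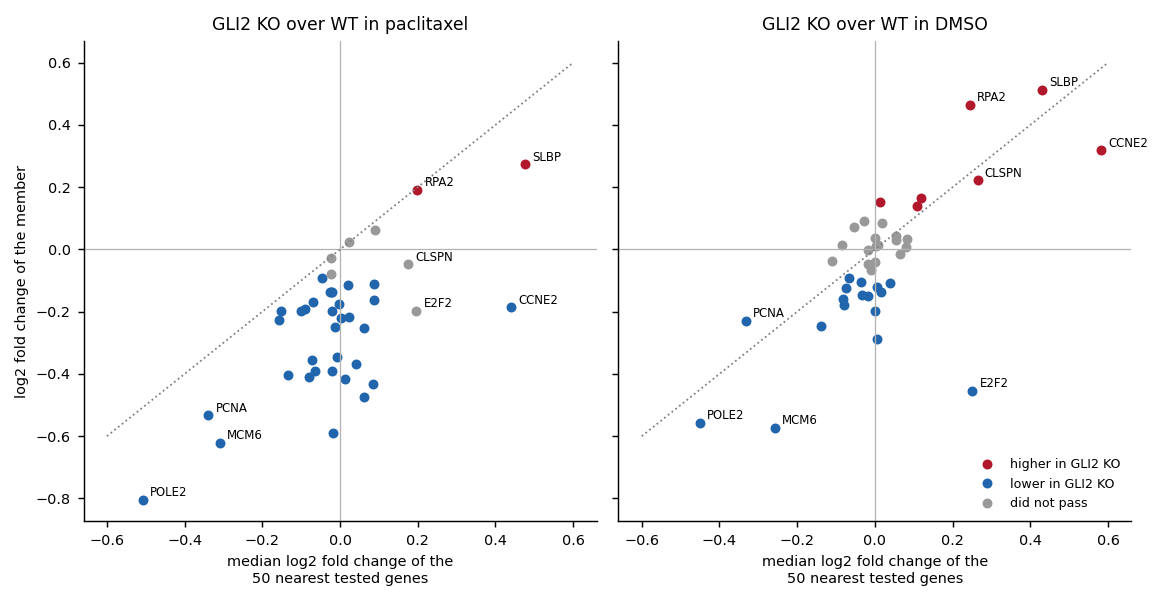
Log2 fold change of GLI2 KO over WT for each member (y axis) against the median of its 50 nearest tested genes (x axis), in paclitaxel (left) and in DMSO (right); each point is a member, red for higher, blue for lower and grey for did not pass, and the dotted line marks equal values. In DMSO POLE2, MCM6, PCNA, RPA2, SLBP, CLSPN and CCNE2 share the sign of their neighbours and E2F2 does not.

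Other genes of DNA replication, 52 not among the members, mostly fell with paclitaxel as well. With paclitaxel 45 of the 52 were lower (background 32.2%) and 0 higher (background 33.0%) in GLI2 KO cells, with a median log2 fold change of -0.58. In WT cells 42 were lower (background 32.1%) and 2 higher (background 34.6%), with a median of -0.45. The difference of effects was lower for 16 (background 6.93%) and higher for 2 (background 6.56%) of them, with a median of -0.12. CDC25A, the phosphatase that activates CDK2, had the largest difference among those that passed, at -0.45 (adjusted p = 2.82e-05), GMNN, the inhibitor of CDT1, had -0.29 (adjusted p = 9.27e-05), and ORC2 had 0.18 (adjusted p = 0.00722). In GLI2 KO against WT cells, CDC7, a kinase that fires origins, was higher by 0.79 in DMSO (adjusted p = 4.13e-15) and 0.80 in paclitaxel (adjusted p = 6.53e-15). CDCA7 was lower, at -0.86 in DMSO (adjusted p = 2.40e-16) and -0.87 in paclitaxel (adjusted p = 6.02e-16). CDC7 lies on chromosome 1 and CDCA7 on chromosome 2, and the neighbours of these genes were not examined. For both, as for the members, a regional difference between the lines and an effect of GLI2 cannot be told apart. Among 31 tested regulators of S-phase entry outside the members, paclitaxel lowered 23 (background 32.2%) and raised 4 (background 33.0%) in GLI2 KO cells, and lowered 22 (background 32.1%) and raised 7 (background 34.6%) in WT cells. The difference of effects was lower for 7 (background 6.93%) and higher for 1 (background 6.56%), with a median of -0.03. The gene with the higher difference was CCND2, cyclin D2, a low-level gene that averaged 1.30 CPM in GLI2 KO paclitaxel, 0.0510 CPM in GLI2 KO DMSO, 1.70 CPM in WT paclitaxel and 0.392 CPM in WT DMSO. Its paclitaxel effects of 4.65 ± 0.27 in GLI2 KO and 2.12 ± 0.18 in WT cells differed by 2.53 (adjusted p = 0.000108). In GLI2 KO DMSO samples 3 counts equal 0.0333 to 0.0385 CPM, so the level of CCND2 there rests on few counts. The sizes of its GLI2 KO effect and of the difference depend on that level. CDKN1A, the inhibitor p21, was 0.61 log2 higher in GLI2 KO than in WT cells in paclitaxel (adjusted p = 1.61e-06). In the same comparison CCNA2 stood at -0.76 (adjusted p = 1.84e-11), MYBL2 at -0.55 (adjusted p = 4.01e-13), and TFDP1, the partner of E2F factors, at -0.47 (adjusted p = 1.58e-12). CCNA2 was also lower in GLI2 KO than in WT cells in DMSO (-0.83, adjusted p = 2.61e-12). The neighbours of these regulators were not examined either. CCNA2 lies on chromosome 4 (start 121816444), as does the mitosis gene MAD2L1 (start 120055608). MAD2L1 stood at -0.74 in DMSO and -0.83 in paclitaxel for GLI2 KO over WT, and a regional difference was not tested.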

How the data were processed

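The authors deposited a table of whole-number counts per gene, unnormalised, for 25049 genes in 12 samples, with a lowest row total of 20. A second deposited table, of normalized values, was not used. The submitters' processing notes name the hg38 build, STAR, Trim Galore 0.6.7 and DESeq2 1.36.0, without their roles. How reads were counted, on which annotation and with which strand setting, is, in the sources used here, not given.

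Counts were tested with edgeR 4.0.16 in R 4.3.3 (quasi-likelihood F test, robust, TMM factors, filterByExpr with a minimum count of 10). The fit held all 12 samples, 4 group means and 8 residual degrees of freedom. The 5 comparisons were paclitaxel against DMSO in GLI2 KO and in WT cells, GLI2 KO against WT in paclitaxel and in DMSO, and the difference of the paclitaxel effects. P-values were two-sided and adjusted by Benjamini-Hochberg over 21974 genes, with a threshold of 0.05. A value after ± beside a log2 fold change is its standard error, the size of the change divided by the square root of F. The smallest exact p for 3 samples against 3 is 0.1. Alternatives were RLE, upper-quartile and total-count scaling, a minimum count of 50, no filter, DESeq2 1.42.0, fits on only the groups compared, and leaving out libraries. Totals of 83230948 to 109018776 counts per sample set the counting error, which is largest for E2F2, the member with the fewest counts.

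Replicate numbers follow accession order. The titles hold library numbers, which the labels do not call pairs, so samples were paired by adjacent numbers only in 1 alternative, chosen after seeing the data. The members and the gene lists were chosen with earlier results of these data known. All 41 members are named. Genes named from each other list come from its largest passing changes, at most 4 per comparison and no more than 3 in a direction. Not all of these genes are named, and GLI2 is added as the targeted gene. GENCODE 29 (GRCh38) gave positions and exon lengths, and matched 93.4% of genes and 41 of 41 members. Promoter sequence is from RefSeq (GRCh38.p14). Counts of members carry no set test, because the members were chosen with results known.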

Additional observations from a re-analysis of the deposited data

Results flagged for a closer look

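For 29 members the paclitaxel effect differed between GLI2 KO and WT cells by the test of the difference itself (edgeR, all 12 samples, adjusted over all tested genes). All 29 values, GLI2 KO effect minus WT effect in log2, were below 0, with SEs of 0.04 to 0.07, and 6.93% of all tested genes were called in that direction. The calls for CDC6, MCM5, MCM7, POLE, PRIM1, RFC5 and RRM1 were each lost on leaving out certain single libraries. That for POLE was also lost with RLE factors, library totals and DESeq2. Among licensing and helicase genes the values were -0.4 for ORC1, -0.31 for CDT1, -0.17 for CDC6, -0.26 for MCM2 and MCM4, -0.15 for MCM7, -0.14 for MCM5, -0.43 for GINS2, -0.29 for GINS1 and -0.19 for MCM10. For polymerase, primase, clamp and repair-related genes they were -0.25 for POLE2, -0.12 for POLE, -0.21 for PRIM1, -0.3 for PCNA, -0.31 for FEN1, -0.27 for RPA2, and -0.18 for each of RFC2, RFC4 and RFC5. In nucleotide supply RRM2 had -0.27, TYMS -0.2 and RRM1 -0.15. Regulators and chromatin genes had -0.5 for CCNE2, -0.26 for E2F1, -0.34 for CHAF1B and -0.24 for SLBP, and the S-phase genes WDR76, TCF19 and CLSPN had -0.43, -0.42 and -0.27. For CCNE2, E2F1 and TCF19 the genotype order turned, with GLI2 KO above WT in DMSO and below it in paclitaxel. Each passed the threshold at both treatments. The call for E2F1 in paclitaxel was lost without GLI2 KO paclitaxel replicate 3 (adjusted p = 0.0908) or WT paclitaxel replicate 1 (0.0896). In DMSO CCNE2 (0.32) stood below the median of its 50 nearest tested genes (0.58). TCF19 (0.16) stood close to its neighbours' median (0.12) and E2F1 (0.15) above its own (0.01). In paclitaxel these neighbours' medians were 0.44 for CCNE2, 0.06 for TCF19 and 0.09 for E2F1.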

How the results depend on the processing

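In GLI2 KO cells 41 members stayed lower with paclitaxel under every alternative run, and in WT cells 40. The count of members higher with paclitaxel in WT cells, 0 in the report, was 1 with upper-quartile factors and 1 with library totals, where RPA2 stood at 0.0944 and 0.118. The count of members higher in GLI2 KO in DMSO was 12 without the 3 libraries furthest from their groups, and the members' median there was 0.012, against 7 and -0.038 with all libraries; leaving out 1 library at a time gave 7 to 11, with 14 to 17 lower. In the other comparisons leaving out 1 library gave 41 to 41 lower for paclitaxel in GLI2 KO, 40 to 40 in WT, 31 to 34 lower and 2 to 3 higher for GLI2 KO against WT in paclitaxel, and 23 to 29 lower for the difference of effects. Upper-quartile factors moved the median of all genes by 0.122 in GLI2 KO and 0.133 in WT cells, and library totals by 0.177 and 0.156. Calls over all genes were then 9324 higher and 4791 lower (GLI2 KO) and 9905 and 4731 (WT) with upper-quartile factors, and 10398 and 3831 (GLI2 KO) and 10352 and 4295 (WT) with library totals, against 7250 and 7077 (GLI2 KO) and 7613 and 7047 (WT) with TMM. The members' median effect was then -0.72 (GLI2 KO) and -0.47 (WT) with upper-quartile factors, and -0.67 and -0.45 with library totals. For single members, the difference of effects for POLE had adjusted p = 0.0686 with RLE factors, 0.0883 with library totals and 0.0515 with DESeq2, and RFC5 in GLI2 KO against WT in paclitaxel had 0.0824 with DESeq2. The cause was not tested. A replicate block on adjacent library numbers from the titles, chosen after seeing the data, left the members at 41 lower in GLI2 KO, 40 in WT and 29 for the difference of effects, and moved the other DNA replication genes with a lower difference to 25, against 16. The labels do not say that these numbers mark pairs; deviations from group means correlated at 0.0349 to 0.227 within the 6 pairs, over 0.1 in 4 of them, and 10 of 12 samples correlated best with their own pair. Genotypes do not share a pair, so their comparison has no such block. Library numbers ran from 1 to 6 in WT and from 7 to 12 in GLI2 KO, so genotype and library order cannot be told apart. Replicate 3 of GLI2 KO DMSO and of GLI2 KO paclitaxel, both among the libraries furthest from their groups, formed the pair 11 and 12, with the highest correlation (0.227).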

Other observations

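Genes of other phases of the cell cycle were counted beside the members. Of 43 G2/M and mitosis genes, 41 were lower with paclitaxel in GLI2 KO cells (background over all tested genes 32.2%) and 41 in WT cells (32.1%), with medians of -0.37 and -0.41 log2. Their difference of effects was lower for 2 (background 6.93%) and higher for 5 (6.56%), with a median of 0.03. SPC24, a kinetochore subunit, had -0.36 (adjusted p = 0.00212), while CENPE, a kinetochore motor, had 0.36 (adjusted p = 0.000118) and HMMR, a spindle protein, 0.36 (adjusted p = 0.00458). Of 33 tested homologous recombination and Fanconi genes, 29 were lower with paclitaxel in GLI2 KO (background 32.2%) and 30 in WT cells (32.1%), with medians of -0.56 and -0.52. The difference of effects was lower for 8 (background 6.93%) and higher for 1 (6.56%). RAD54L, a motor of strand exchange, had a difference of -0.31 (adjusted p = 0.00957). No test between these lists and the members was run.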
